A study of Homo sapiens with 6 samples.

Results

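The data cover 52 genes of ribosome biogenesis and RNA polymerase I in HCC38, an established human breast cancer cell line labelled triple negative and basal-like. The genes were taken by symbol from a count table of 26485 genes, all 52 were found, and all 52 passed the filter on low counts, which left 13562 genes in all. Poly(A) RNA had been sequenced in 6 libraries. The silenced cells gave 1 library for each of 3 different siRNAs against CIP2A (siCIP2A#1, siCIP2A#2 and siCIP2A#3), a gene whose protein inhibits the phosphatase PP2A and has been linked to the stability of MYC. The controls were 2 libraries with a non-targeting siRNA, 1 with SCR#2 and 1 with SCR#3, and 1 mock library. One label describes the mock as reagent without siRNA, the design text as not transfected, and its values are given apart. All siRNAs went in with Oligofectamine. No label states separate cultures, and no 2 libraries had the same treatment, so the p-values reflect only how far these libraries scatter. That scatter may be technical and includes any difference between the siRNAs of a group, or between them and the mock. In bulk RNA, fewer cells and less RNA per cell cannot be told apart.

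Ribosomes are built in the nucleolus, where RNA polymerase I transcribes one long precursor of most of the ribosomal RNAs. Small nucleolar ribonucleoproteins (snoRNPs) modify the precursor: the box C/D class directs methylation of the ribose, and the box H/ACA class directs conversion of uridine to pseudouridine. Assembly factors then cleave, fold and pack the RNA into the small and the large subunit, and most are released before the ribosome is used. MYC is a transcription factor long known to raise many of these genes, together with ODC1 and SRM, enzymes of polyamine synthesis. Its usual binding sequence with MAX is the E-box CACGTG. The 52 genes fall into 7 groups by role: 6 of RNA polymerase I, 3 of box C/D snoRNPs, 4 of box H/ACA snoRNPs, 4 abundant nucleolar proteins, 17 of small subunit assembly, 16 of large subunit assembly and 2 of polyamine synthesis.

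The E-box was looked for in the promoters because it is MYC's usual site, and some of the matches are shown. RefSeq promoter windows of GRCh38.p14, from 250 bases before to 50 bases after the start, were found for 45 of the 52 genes, and 20 of the 45 held CACGTG (44.4%). The motif is the same on both strands. It was in 8.77% of the windows of all 27305 genes in that table and in 12.7% of the 10126 tested genes that had a window. By role, 0 of 5 RNA polymerase I genes held it, against 1 of 2 box C/D, 2 of 4 box H/ACA, 1 of 3 nucleolar, 8 of 16 small subunit, 6 of 13 large subunit and 2 of 2 polyamine genes. The stretches below are read 5′ to 3′ on the strand of the gene, lie before the RefSeq start and outside annotated exons, and have the E-box in capitals. They are those of UTP20 (chr12:101279855-101280104, plus strand), SRM (chr1:11060025-11060268, minus strand), ODC1 (chr2:10448013-10448120, minus strand) and NOP10 (chr15:34343178-34343314, minus strand).
UTP20: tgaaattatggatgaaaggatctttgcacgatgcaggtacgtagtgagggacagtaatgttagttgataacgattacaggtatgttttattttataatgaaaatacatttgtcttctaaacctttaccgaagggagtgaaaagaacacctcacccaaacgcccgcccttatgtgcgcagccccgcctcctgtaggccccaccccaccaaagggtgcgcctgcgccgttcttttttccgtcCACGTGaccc
SRM: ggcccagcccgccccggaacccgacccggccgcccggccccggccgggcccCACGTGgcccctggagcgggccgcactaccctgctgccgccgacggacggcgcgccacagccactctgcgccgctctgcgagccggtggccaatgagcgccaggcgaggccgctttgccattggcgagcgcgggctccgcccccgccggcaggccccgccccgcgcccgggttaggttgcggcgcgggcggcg
ODC1: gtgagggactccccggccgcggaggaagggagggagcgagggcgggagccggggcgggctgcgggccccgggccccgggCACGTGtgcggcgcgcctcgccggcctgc
NOP10: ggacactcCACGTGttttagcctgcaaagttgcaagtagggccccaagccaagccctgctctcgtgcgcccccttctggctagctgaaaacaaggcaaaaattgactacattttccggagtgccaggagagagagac

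The first base of the E-box stood 10 bases before the start in UTP20, 199 in SRM, 29 in ODC1 and 170 in NOP10. NOP10 has another one 11 bases before its start, and ODC1 has another one that begins at base 6 after its start. Of the other genes with the motif, 3 are shown as examples with 10 bases on either side of it. Other motif genes recur below as well, and these 3 do not stand for them. The FBL motif begins at base 7 after the start (chr19:39846358-39846383, minus strand). The DDX21 motif begins 31 bases before it (chr10:68956606-68956631, plus strand) and the NAT10 motif 15 bases before it (chr11:34105604-34105629, plus strand).
FBL: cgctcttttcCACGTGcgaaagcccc
DDX21: ccgggtgtccCACGTGgtccccggcg
NAT10: tgcgcttgcgCACGTGctgtctacca

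Counts per library summed to between 15547526 and 18161451 in silenced cells and between 13995187 and 17116379 in controls. CIP2A itself was at 16.3, 45.8 and 19.3 CPM (counts scaled to the same total of tested genes in each library, with TMM factors) with siCIP2A#1, #2 and #3, against 99.8 and 103.0 CPM with SCR#2 and SCR#3 and 98.9 CPM in the mock. Over all 3 silenced libraries its log2 difference was -1.90 (SE 0.30, edgeR adjusted p = 0.708), and siRNA by siRNA it was called each time, at -2.62, -1.13 and -2.38 (edgeR adjusted p = 0.000241, 0.0165 and 0.000468). MYC was at 118.8, 124.3 and 163.4 CPM in the silenced libraries, against 123.1 and 121.2 CPM with the non-targeting siRNAs and 149.4 CPM in the mock, and was not called in any comparison. Its values were highest with siCIP2A#3 and in the mock. Of the cell type markers, VIM (4318 to 4805 CPM), KRT8 and KRT18 were high, whereas the basal keratin KRT14 was at 0 in every library, KRT5 and KRT17 were at or below 0.0680 CPM, and CDH1 and EPCAM were at or below 1.22 and 0.747 CPM. EGFR, also on the basal-like list, was at 73.0 to 84.4 CPM. Of the receptors that are low in triple negative tumours, ESR1 and PGR were at or below 0.351 and 0.117 CPM, whereas ERBB2 was at 48.3 to 74.4 CPM. The 5 leukocyte markers summed to at most 0.453 CPM in silenced and 0.475 CPM in control libraries. The 5 endothelial markers summed to 7.13 to 13.6 CPM in silenced libraries and 7.50 to 10.9 CPM in controls, mostly from PECAM1 and KDR. The 5 fibroblast markers summed to 6.13 to 18.2 CPM in silenced libraries and 6.52 to 7.72 CPM in controls, with COL1A1 at 14.4 CPM with siCIP2A#1.

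Levels per length were high for most of the 52 genes. RPKM (CPM per kilobase of the gene's main transcript) in controls had a median of 32.2 over them, against 9.43 over the 12826 tested genes with a length, and 48 of the 52 lay above that median. FBL, the methyltransferase of box C/D snoRNPs, was highest at 483 ± 75.7 RPKM in silenced cells and 487 ± 24.7 RPKM in controls (SD, n = 3 each). It was followed in controls by the histone-binding chaperone NPM1 (289 RPKM), the small H/ACA protein NOP10 (272 RPKM) and nucleolin, NCL (260 RPKM). The RNA polymerase I genes ranged from 6.26 RPKM for POLR1A, the largest subunit, to 48.1 RPKM for POLR1E. Small subunit factors ranged from 7.37 RPKM (UTP15) to 45.2 RPKM (LTV1). PPAN was lowest at 0.882 ± 0.185 RPKM in silenced cells and 0.810 ± 0.206 RPKM in controls (SD, n = 3 each). Its exons are shared over 83.2% of their bases with PPAN-P2RY11, a readthrough transcript of the same strand that is listed with 0 counts, so its level is uncertain.

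**Figure D1:**
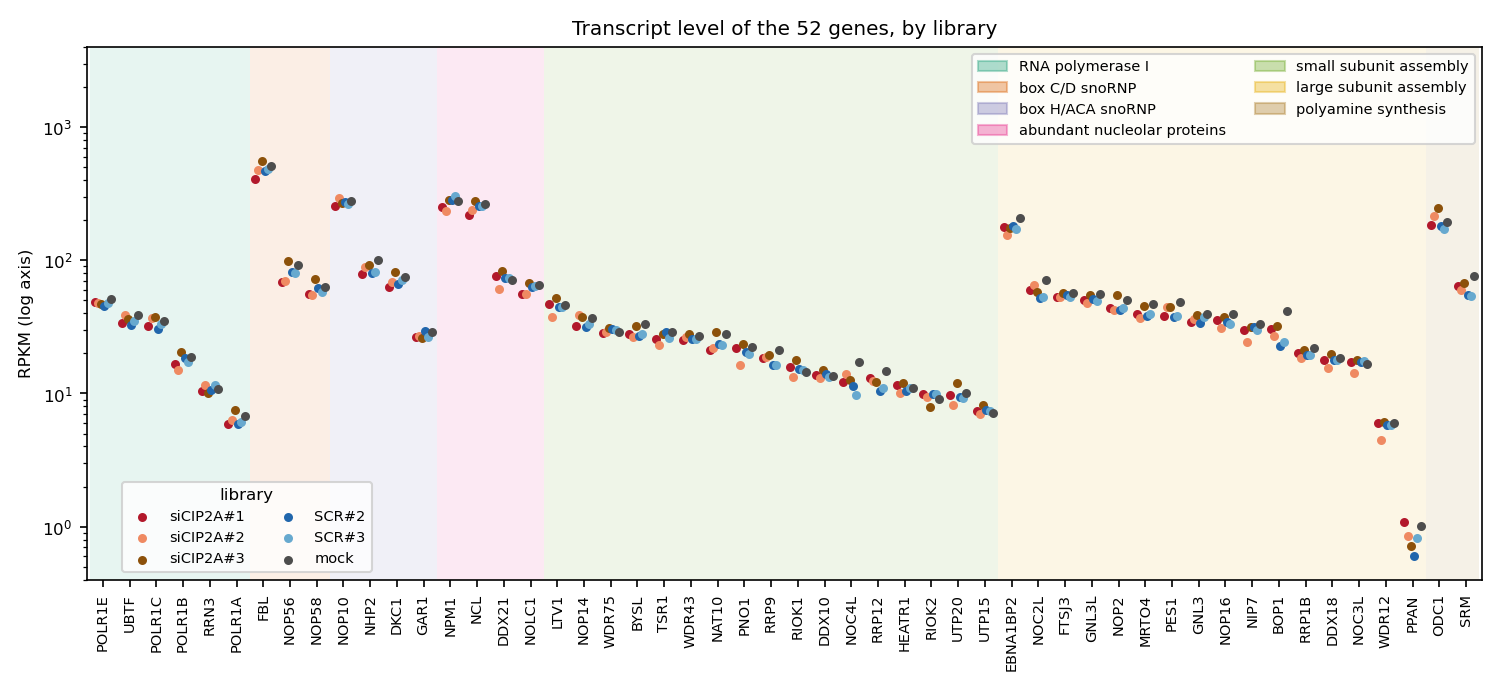
RPKM of each of the 52 genes on a log axis, grouped by role (background colour) and ordered by level within a role; each point is 1 library, siCIP2A libraries left and controls right within a gene. FBL stood highest and PPAN lowest, and the 6 libraries of a gene lay close together beside the spread between genes.

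No shift of these genes as a group was seen with the 3 siRNAs pooled: 0 of 52 were called, 24 lay above 0 and 28 below, and their median log2 difference was -0.0076, against -0.0011 over all 13562 tested genes. These counts moved with single libraries, although 0 of 52 were called each time: the median was -0.07 with 14 above 0 without siCIP2A#3, 0.03 with 31 above without siCIP2A#2 and 0.01 with 27 above without siCIP2A#1. It was -0.04 with 16 above 0 without SCR#2, -0.03 with 16 above without SCR#3 and 0.04 with 35 above without the mock. No gene at all was called in that comparison (background 0%) by edgeR's quasi-likelihood test, including CIP2A, although 369 genes had an unadjusted p under 0.05 and DESeq2 called 3, none of the 52. Of the 52, ODC1 alone had an unadjusted p under 0.05. In 0 of 52 genes did the silenced libraries all lie on one side of all controls, a pattern found in 7.64% of tested genes. No member differed by 0.3 or more on the log2 scale, whereas 8.99% of tested genes did. Standard errors ran from 0.08 to 0.31 with a median of 0.11, so differences of about that size were not detectable here. Much larger ones could also go uncalled, since CIP2A at -1.90 (SE 0.30) was not called. The absence of calls therefore does not show that these genes were unchanged.

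**Figure D2:**
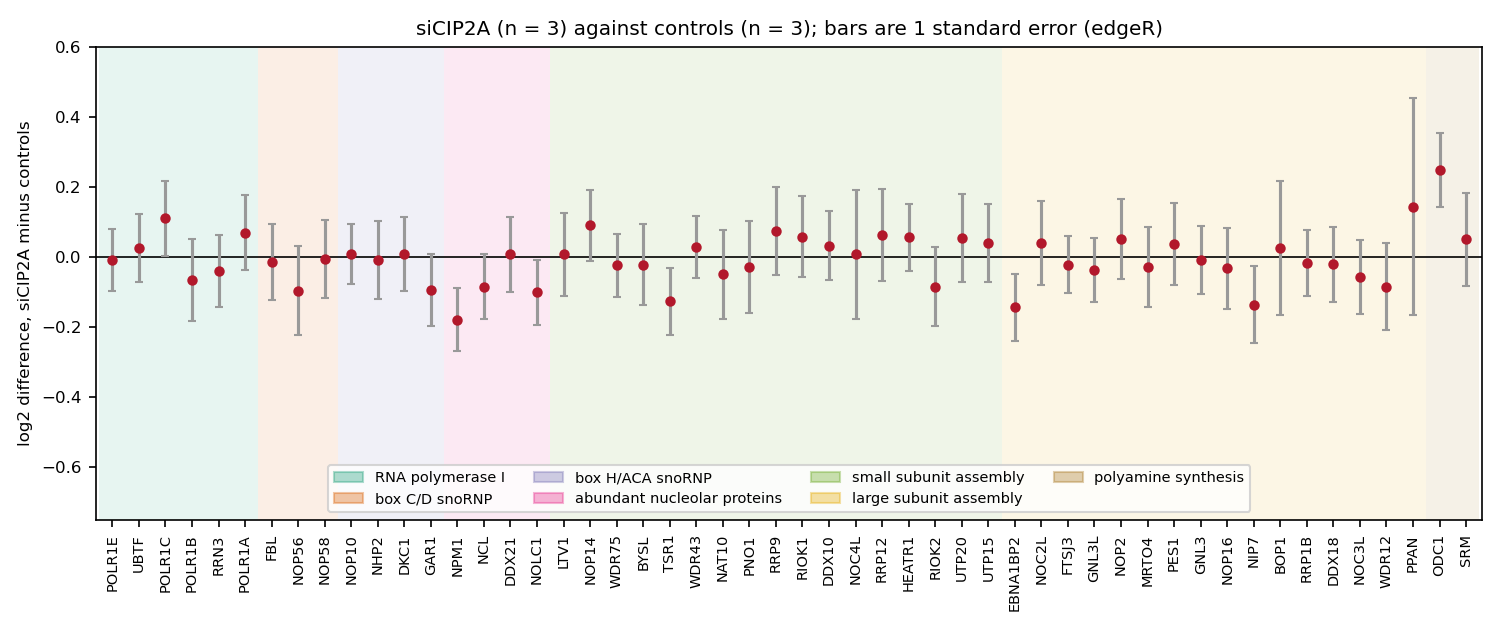
log2 difference, siCIP2A minus controls, for the 52 genes by role; points are edgeR estimates from 3 libraries a group and bars are 1 standard error. Estimates ran from -0.18 for NPM1 to 0.25 for ODC1, and none was called.

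ODC1, which makes putrescine and is the rate-limiting enzyme of polyamine synthesis, had the largest difference. It was at 487, 573 and 656 CPM with siCIP2A#1, #2 and #3, against 478 and 455 CPM with SCR#2 and SCR#3 and 512 CPM in the mock. The siCIP2A#2 and #3 libraries lay above every control, and siCIP2A#1 lay below the mock. The log2 difference was 0.25 (SE 0.11, edgeR adjusted p = 0.999). SRM, the spermidine synthase, was at 81.4, 76.0 and 85.3 CPM in silenced cells, against 69.1 and 68.6 CPM with the non-targeting siRNAs and 97.0 CPM in the mock. Every silenced library was thus between the non-targeting siRNAs and the mock (0.05, SE 0.13, edgeR adjusted p = 0.999).

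Among the abundant nucleolar proteins, NPM1 had the lowest difference of all 52 genes. It was at 440, 409 and 497 CPM in silenced cells, against 503 and 531 CPM with SCR#2 and SCR#3 and 490 CPM in the mock. The groups overlapped only through siCIP2A#3 (-0.18, SE 0.09, edgeR adjusted p = 0.999). NCL, which binds the precursor RNA, was at 886, 963 and 1118 CPM in silenced cells, against 1030 and 1038 CPM with the non-targeting siRNAs and 1077 CPM in the mock. NOLC1, a chaperone of snoRNPs, was at 221, 218 and 265 CPM, against 249, 250 and 256 CPM. In both genes siCIP2A#1 and #2 were the lowest libraries and siCIP2A#3 the highest (log2 differences -0.08 and -0.10, both with SE 0.09). DDX21, an RNA helicase, was at 357, 289 and 394 CPM in silenced cells and 347, 350 and 337 CPM in controls.

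The box C/D genes were also highest with siCIP2A#3. FBL was at 475, 554 and 650 CPM with siCIP2A#1, #2 and #3, against 541 and 559 CPM with SCR#2 and SCR#3 and 597 CPM in the mock. Its scaffold partner NOP56 was at 166, 169 and 235 CPM, against 198 and 193 CPM with the non-targeting siRNAs and 220 CPM in the mock. NOP58, the other scaffold, was at 114, 112 and 147 CPM, against 127, 119 and 128 CPM. For all 3 genes siCIP2A#3 was the highest of the 6 libraries and siCIP2A#1 or #2 the lowest, although siCIP2A#2 lay above SCR#2 for FBL, and the pooled differences were -0.01, -0.10 and -0.01 (SE 0.11, 0.13 and 0.11). In the box H/ACA group, GAR1 was at 32.3, 32.9 and 32.1 CPM in silenced cells and 36.2, 32.3 and 35.4 CPM in controls (-0.09, SE 0.10). NOP10 was at 143, 163 and 149.6 CPM in silenced cells, against 153, 145.5 and 153.5 CPM in controls (0.01, SE 0.09). The pseudouridine synthase DKC1 was at 162, 177 and 212 CPM, against 170.4, 184 and 193 CPM (0.01, SE 0.11), and its lowest and highest libraries were both silenced ones.

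RNA polymerase I genes had 3 estimates above 0 and 3 below. POLR1C, a subunit shared with RNA polymerase III, was at 43.4, 50.4 and 50.6 CPM in silenced cells, against 41.3 and 45.2 CPM with the non-targeting siRNAs and 47.2 CPM in the mock (0.11, SE 0.11, edgeR adjusted p = 0.999). POLR1A was at 75.6, 80.3 and 95.3 CPM, against 75.5, 78.2 and 85.8 CPM (0.07, SE 0.11). POLR1B, the second largest subunit, was at 76.1, 67.8 and 92.9 CPM, against 83.7, 78.3 and 86.0 CPM (-0.07, SE 0.12). POLR1E, the highest of the 6 per length, was at 90.2, 89.2 and 88.4 CPM, against 84.6, 89.6 and 95.1 CPM, so its silenced libraries lay within the range of the controls. UBTF, which binds the ribosomal DNA, and RRN3, which brings the polymerase to its promoter, differed by less than their standard errors.

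Small subunit factors had 11 of 17 estimates above 0, with a median of 0.03, and large subunit factors 5 of 16, with a median of -0.02. TSR1, a late factor of the small subunit, was at 133, 120 and 145 CPM in silenced cells, against 150 and 136 CPM with the non-targeting siRNAs and 150 CPM in the mock (-0.13, SE 0.10). NOP14 was at 113, 138 and 133 CPM, against 112, 118 and 130 CPM (0.09, SE 0.10), and the kinase RIOK2 was at 38.7, 37.1 and 31.3 CPM, against 38.5, 39.2 and 35.9 CPM (-0.08, SE 0.11). LTV1, the highest small subunit factor per length, was at 86.4, 68.8 and 96.5 CPM, against 83.0, 82.1 and 85.4 CPM (0.01, SE 0.12), so siCIP2A#2 was lowest and siCIP2A#3 highest. Of the large subunit, EBNA1BP2 was at 236, 205 and 231 CPM, against 241 and 227 CPM with the non-targeting siRNAs and 274 CPM in the mock (-0.14, SE 0.10). NIP7 was at 72.5, 59.0 and 75.6 CPM, against 75.5, 71.7 and 80.3 CPM (-0.14, SE 0.11). WDR12, which forms a complex with PES1 and BOP1, was at 48.7, 36.2 and 49.6 CPM, against 47.3, 46.6 and 48.9 CPM (-0.08, SE 0.12), so siCIP2A#2 lay well below the other 5. All had an edgeR adjusted p of 0.999.

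The median of these genes in the siCIP2A#3 library stood apart from the other silenced libraries. The medians of siCIP2A#1 and #2 lay close to each other and to those of the non-targeting siRNAs, although single genes did not. Relative to the mean of the 3 controls, the median gene stood at -0.05 with siCIP2A#1, -0.07 with siCIP2A#2 and 0.11 with siCIP2A#3, on a log2 CPM scale, while the non-targeting libraries stood at -0.04 and -0.05 and the mock at 0.08. Above 0 were 20, 15 and 42 of 52 genes in the silenced libraries, 13 with each non-targeting siRNA and 43 in the mock. The lower and upper quartiles were -0.10 and 0.02 with siCIP2A#1 but -0.21 and 0.03 with siCIP2A#2, so single genes spread more widely with siCIP2A#2. Each control is part of the mean it is compared with, so the 3 control values of a gene sum to 0. A high mock thus lowers the non-targeting values, and controls and silenced libraries are not on the same footing here. The median of all tested genes was within 0.01 of 0 in each library. The highest of the 6 libraries was siCIP2A#3 for 26 genes and the mock for 19, and the lowest was siCIP2A#2 for 24. How often each library was highest or lowest over all tested genes was not counted, so these counts cannot be read as a trait of the 52. MYC was also highest in siCIP2A#3 and the mock, and its part in the order of the libraries was not tested.

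**Figure D3:**
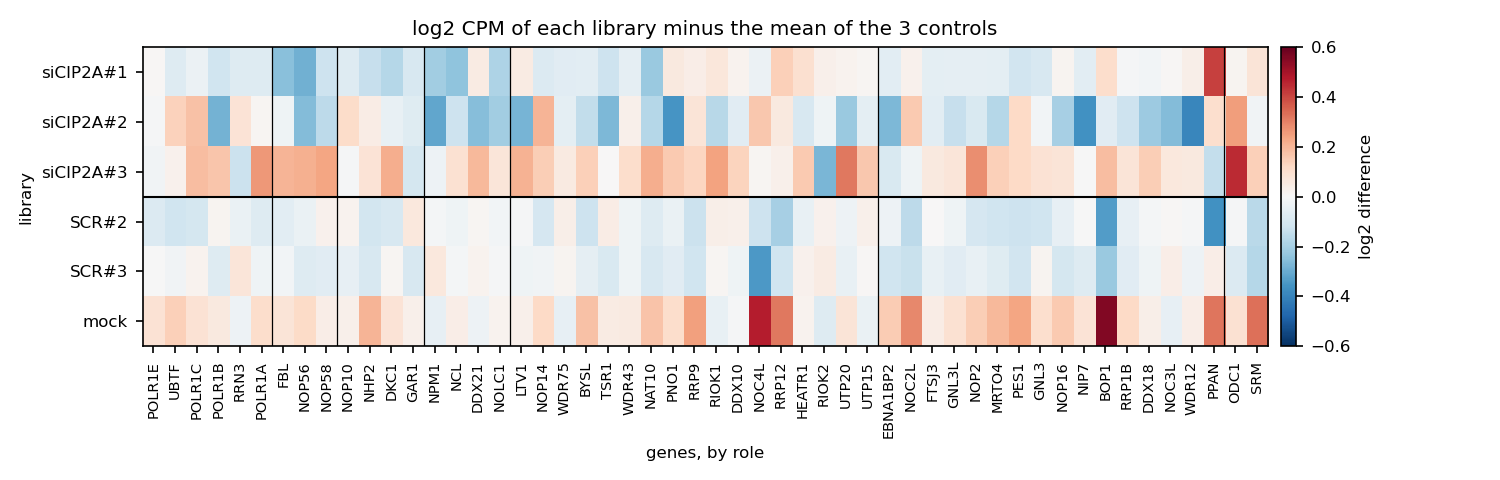
log2 CPM of each library minus the mean of the 3 controls (colour, from -0.6 to 0.6) for the 52 genes, ordered by role and separated by vertical lines; siCIP2A libraries lie above the horizontal line and controls below it. The siCIP2A#3 and mock rows are mostly red, and the siCIP2A#2 row is blue for many nucleolar and assembly genes.

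**Figure D4:**
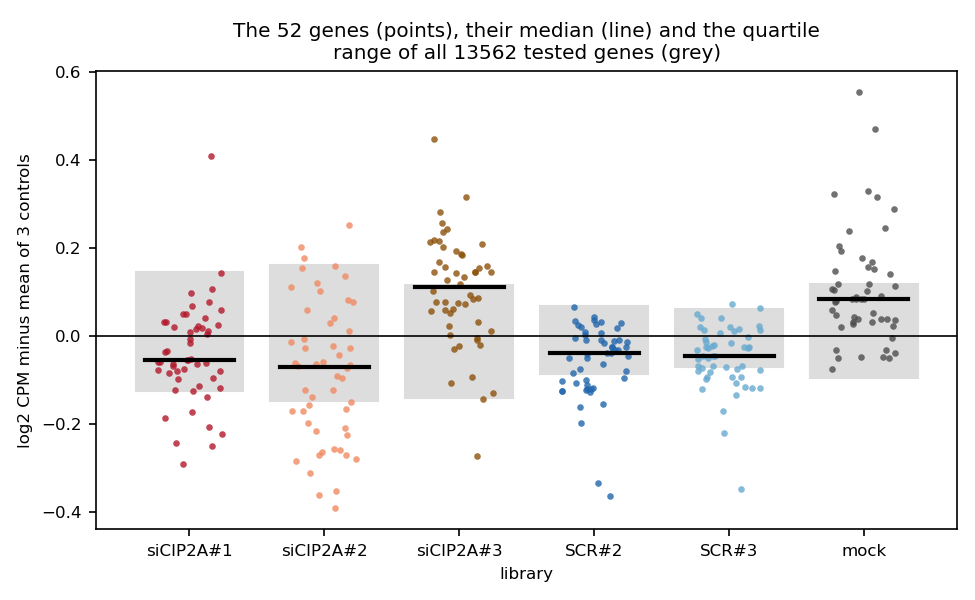
The same values as points by library, with the median of the 52 genes as a black line and the range from the lower to the upper quartile of all tested genes as a grey box. The medians were -0.05, -0.07 and 0.11 in the siCIP2A libraries, -0.04 and -0.05 with the non-targeting siRNAs and 0.08 in the mock.

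Fitted one siRNA at a time against the controls, 0 of 52 genes were called with siCIP2A#1 (background 0.118%), 0 with siCIP2A#2 (0.0737%) and 0 with siCIP2A#3 (0.00737%) by edgeR, and DESeq2 called none of them either. The unadjusted p was under 0.05 for 4, 11 and 4 genes, which is 7.69%, 21.2% and 7.69%, against 9.95%, 11.6% and 8.22% of all tested genes. These comparisons share their controls. The fit has 2 residual degrees of freedom, both from the 3 controls, and each siRNA library is assumed to vary like them. Medians over the 52 genes were -0.06, -0.08 and 0.11. The 3 box C/D genes had a median of -0.25 with siCIP2A#1, -0.16 with siCIP2A#2 and 0.21 with siCIP2A#3. The nucleolar proteins had -0.20, -0.23 and 0.08, the small subunit factors 0.02, -0.07 and 0.14, and the large subunit factors -0.03, -0.13 and 0.07.

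ODC1 was the highest of the 52 with siCIP2A#2 and #3, at 0.02 (SE 0.09), 0.25 (SE 0.09) and 0.45 (SE 0.09) with siCIP2A#1, #2 and #3. Its adjusted p with siCIP2A#3 was 0.332 by edgeR, 0.0412 when low counts were not filtered (background 0.230%, 1 of 52 called) and 0.0121 with offsets for transcript GC content and length (background 1.00%, 1 of 52 called). The lowest values were those of NOP56 with siCIP2A#1 (-0.29, SE 0.11), WDR12 with siCIP2A#2 (-0.39, SE 0.12) and RIOK2 with siCIP2A#3 (-0.28, SE 0.13). NOP56 was at -0.26 with siCIP2A#2 and 0.21 with siCIP2A#3. With the GC and length offsets it was the 1 of 52 genes called with siCIP2A#1 (edgeR adjusted p = 0.0296, background 3.44%) and the 1 called with siCIP2A#2 (adjusted p = 0.0433, background 1.65%).

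The siRNAs were also set against each other. Each of these comparisons has 1 library on either side, takes its spread from the 3 controls and was read after the libraries had been seen to differ, so the values describe these libraries and are not independent support for a difference between siRNAs. siCIP2A#1 against siCIP2A#3 gave a median of -0.13 with 44 of 52 genes below 0, and siCIP2A#2 against siCIP2A#3 gave -0.22 with 40 below 0, whereas siCIP2A#1 against siCIP2A#2 gave 0.05 with 21 below 0. Medians over all tested genes were 0.0019, 0.0117 and -0.0053 in the same order. No member was called by edgeR in any of the 3 (backgrounds 0.509%, 0% and 0.0147% in the same order), and the unadjusted p was under 0.05 for 17.3%, 30.8% and 7.69% of the 52, against 13.6%, 15.6% and 12.1% of tested genes. For siCIP2A#1 against siCIP2A#3 the lowest log2 difference was that of NOP56 (-0.50, SE 0.13, edgeR adjusted p = 0.156), and FBL was at -0.45 (SE 0.11, adjusted p = 0.136). For siCIP2A#2 against siCIP2A#3 the lowest value was that of UTP20, a scaffold of the small subunit precursor, at 74.1 and 108 CPM (-0.54, SE 0.14, edgeR adjusted p = 0.171), and NOP56 was at -0.48 (SE 0.13, adjusted p = 0.192).

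The calls between siRNA libraries depended on the model. Without a filter on low counts, edgeR called FBL and NOP56 for siCIP2A#1 against siCIP2A#3, 2 of 52 against a background of 1.59%. With the GC and length offsets it called 8 of 52 (15.4%, background 7.25%), all lower with siCIP2A#1: DKC1, FBL, NAT10, NCL, NOP2, NOP56, ODC1 and POLR1A. For siCIP2A#2 against siCIP2A#3 it then called 7 of 52 (13.5%, background 5.06%), all lower with siCIP2A#2: DDX21, FBL, LTV1, NOP2, NOP56, POLR1B and UTP20. NOP56 was at -0.58 in both (SE 0.09, adjusted p = 0.0028 and 0.0061). These offsets were chosen after seeing the data.

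More genes were called for single siRNAs when the mock was left out. The 2 non-targeting libraries are then the whole control group, with 1 residual degree of freedom. Leaving out SCR#2 or SCR#3 instead gives a control group of the same size, and far fewer genes were then called with each siRNA. The cause of this difference was not tested. edgeR called 7 of 52 genes with siCIP2A#1 (13.5%, background 13.4%), 18 with siCIP2A#2 (34.6%, background 22.1%) and 14 with siCIP2A#3 (26.9%, background 8.93%). With siCIP2A#3, 13 of the 14 were higher: ODC1 (0.49), BOP1, NOP2, UTP20, POLR1A, SRM, NAT10, NOP56, DKC1, NOP58, FBL, MRTO4 and PES1, and RIOK2 was lower. With siCIP2A#2, 12 of 18 were lower, among them WDR12 (-0.37), NPM1 (-0.34) and DDX21 (-0.27), and ODC1, NOC2L, NOC4L, NOP14, PES1 and UBTF were higher. With siCIP2A#1, FBL, NCL, NOP56 and NPM1 were lower and BOP1, RRP12 and SRM higher. The median over the 52 genes was then -0.0013, -0.06 and 0.17 with siCIP2A#1, #2 and #3.

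The non-targeting siRNA libraries lay below the mock in most of the 52 genes, and furthest in members rich in GC. No gene of the 52 was called by edgeR (background 0%; 856 of 13562 tested genes had an unadjusted p under 0.05), yet 43 of the 52 estimates were below 0, with a median of -0.13 against 0.0023 over all tested genes. BOP1, a partner of PES1, was at 51.9 and 56.1 CPM with SCR#2 and SCR#3 and at 96.2 CPM in the mock, and the silenced libraries lay between, at 70.5, 62.4 and 74.5 CPM. Its log2 difference was -0.83 (SE 0.14, edgeR adjusted p = 0.61). BOP1 was the 1 of 52 genes called by DESeq2 (adjusted p = 0.0274, background 0.0221%) and by edgeR with no filter (adjusted p = 0.0197, background 0.0261%). NOC4L was at 18.7 and 16.0 CPM with the non-targeting siRNAs and 28.3 CPM in the mock (-0.70, SE 0.18). SRM (-0.49, SE 0.13), RRP12 (-0.48, SE 0.13) and NOC2L (-0.43, SE 0.12) followed. There is 1 mock library, so none of these has a replicate on that side.

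Transcript GC content moved with this difference. Across the 52 genes, which share the libraries, its Pearson correlation with the log2 difference between non-targeting siRNAs and mock was -0.86, and across the 12826 tested genes with a known GC content it was -0.52. The 13 members with at least 55% GC had a median of -0.37, the 20 from 45% to 55% had -0.13, and the 19 below 45% had -0.03. The same bins over all tested genes had -0.22, -0.01 and 0.13. For siCIP2A#3 against controls the correlation over the 52 was -0.01, and its medians relative to controls were 0.13, 0.08 and 0.13 in the bins from high to low GC. For siCIP2A#2 the correlation was 0.42, with 0.04, -0.10 and -0.17. Over all tested genes with a known GC content siCIP2A#2 also had a positive correlation, 0.33, with 0.14, -0.01 and -0.08. A rise with GC was thus not particular to the 52 genes in that library. With GC and length offsets the median for non-targeting siRNAs against mock was -0.14 with 50 of 52 below 0, and for siCIP2A#3 against controls 0.14 with 47 above 0.

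**Figure D5:**
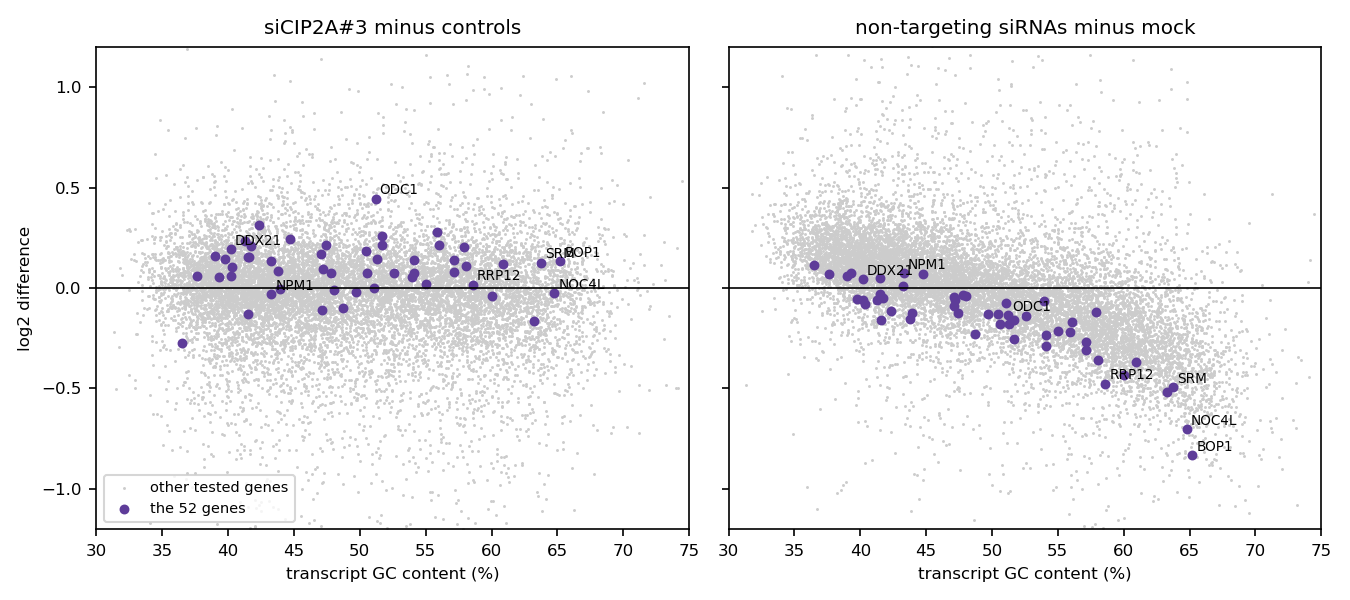
log2 difference against transcript GC content (%) for the 52 genes (purple) and the other tested genes (grey), for siCIP2A#3 minus controls (left) and non-targeting siRNAs minus mock (right); genes beyond 1.2 in either direction or outside 30% to 75% GC are not drawn. The purple points fall with GC on the right, down to -0.83 for BOP1, and lie mostly above 0 at all GC contents on the left.

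Members with and without an E-box in the promoter window were set side by side, with no test. In siCIP2A against controls the 20 with CACGTG had a median of 0.01 and the 25 without it -0.02. With siCIP2A#3 they were at 0.14 (17 of 20 above 0) and 0.07 (18 of 25 above 0). For siCIP2A#1 against siCIP2A#3 they were at -0.17 and -0.12, and for siCIP2A#2 against siCIP2A#3 they were at -0.21 and -0.22. For non-targeting siRNAs against mock they were at -0.16 (2 of 20 above 0) and -0.09 (7 of 25 above 0). ODC1, UTP20, FBL, DDX21 and NAT10, whose motifs are printed above, each had their highest value with siCIP2A#3. SRM was highest in the mock and NOP10 with siCIP2A#2. Of the motif genes not printed, WDR43, LTV1, PNO1, NOP2 and NOC3L were highest with siCIP2A#3. RRP9, BYSL, PES1, MRTO4, EBNA1BP2 and GNL3 were highest in the mock, NOP14 with siCIP2A#2 and GAR1 with SCR#2. Among all 52 genes, with or without the motif, siCIP2A#3 was highest for 26. A match of 6 letters is a description of the window and says nothing of binding.

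Of 150 other genes of the pathway, 0 were called in siCIP2A against controls, with 75 above 0, 75 below and a median of -0.0005. These were RNA polymerase I, small subunit, large subunit, snoRNP assembly, RNA exosome and RNA polymerase III genes. The lowest p in the RNA polymerase I list was that of POLR2H, described below, followed by POLR1H (-0.21, SE 0.15). In the small subunit list it was that of EMG1, a methyltransferase (-0.24, SE 0.10), followed by AATF (-0.20, SE 0.11). In the large subunit list they were SBDS (0.16, SE 0.09) and RRP15 (0.15, SE 0.12), in snoRNP assembly RUVBL1 (-0.16, SE 0.09) and TAF9 (-0.17, SE 0.10), and in the exosome EXOSC8 (-0.18, SE 0.11) and EXOSC2 (-0.15, SE 0.10). For RNA polymerase III they were POLR3G (-0.23, SE 0.19) and GTF3C5 (0.10, SE 0.09). All had an edgeR adjusted p of 0.999. With siCIP2A#3, 101 of the 150 lay above 0, with a median of 0.05, and the large subunit list had 35 of 44 above 0, with a median of 0.12. With siCIP2A#2, all 11 snoRNP assembly genes lay below 0, with a median of -0.25 and 0 called.

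POLR2H, a small subunit shared by RNA polymerases I, II and III, differed in 1 library. It was at 73.8, 75.2 and 37.0 CPM with siCIP2A#1, #2 and #3, against 75.8 and 73.0 CPM with SCR#2 and SCR#3 and 82.6 CPM in the mock. The siCIP2A#3 value lay far below the other 5. Against controls the log2 difference with siCIP2A#3 was -1.06 (SE 0.13) and was not called by edgeR. DESeq2, edgeR with no filter and edgeR with the GC and length offsets called it, at -1.05, -1.05 and -1.01. siCIP2A#1 against siCIP2A#3 gave 1.00 (SE 0.15) and was called by edgeR. siCIP2A#2 against siCIP2A#3 gave 1.02 (SE 0.15), not called by edgeR but called under the same alternatives. All of these rest on 1 siCIP2A#3 library. The pooled difference over all 3 siRNAs was -0.32 (SE 0.21), and -0.05 (SE 0.10) without siCIP2A#3.

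Some of the 52 genes share exons with other genes. Where these lie on opposite strands, reads may be split between them, since the strand setting of the counting is not given. NHP2 shares 43.8% of its exon bases with RMND5B in this way, HEATR1 23.9% with LGALS8, TSR1 21.4% with SRR and EBNA1BP2 17.6% with CFAP57. On the same strand, NOP2 shares 70.9% with AC006064.6 and LTV1 27.7% with AL049844.3. Those partners are not among the counted genes under these names, and the strand setting would not separate them.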

How the data were processed

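Poly(A) RNA of 6 HCC38 libraries was sequenced with a stranded TruSeq kit, per the labels' protocols. The submitters' processing notes name the build hg38 and, as tools, STAR 2.5.4b, Subread 1.5.1 and bcl2fastq 2.17. The sources used here do not give the annotation or the strand setting. The authors deposited raw whole-number counts per gene in 1 table. Of its symbols, 51 read as amounts of money, as a spreadsheet would change them, and 50 were restored by Entrez identifier, PES1 and BOP1 among them.

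The filter was filterByExpr with a minimum count of 10, which kept 13562 genes, and libraries were TMM-scaled. edgeR 4.0.16 in R 4.3.3 (robust glmQLFit, glmQLFTest) gave log2 differences, with Benjamini-Hochberg adjustment over all tested genes and a threshold of 0.05. Standard errors are the log2 difference divided by the root of F. Residual degrees of freedom were 4 for siCIP2A against controls, 2 for single siRNAs and 3 for non-targeting siRNAs against mock. DESeq2 1.42.0 was an alternative, and others were RLE factors, no filter, a replicate block, the mock as its own level, each library left out, and offsets for transcript GC content and length, chosen after seeing the data. Log2 CPM used a prior count of 2. Lengths, GC content and exons came from GENCODE 29 and promoters from RefSeq. The edgeR fits were tested on simulated data.

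Chi-square per degree of freedom between libraries of a group was 3.21 to 18.0, so none was a copy. A count of 3 corresponds to 0.165 to 0.214 CPM of the library total. The members, lists and E-box motif were chosen with earlier results of these data known. Values in every library were given for the 3 members of each role with the smallest p, the highest of each role, and members and siRNAs followed between comparisons, the last picked after their values were seen. EFL1 was not matched, and MPP6 was left out because that symbol belongs to another gene in the table.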

Additional observations from a re-analysis of the deposited data

Results flagged for a closer look

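CIP2A was lower in the siCIP2A#1 library than in the siCIP2A#2 library. For siCIP2A#1 against siCIP2A#2 the log2 difference was -1.49 (SE 0.15, edgeR adjusted p = 0.0302), with 16.3 CPM in the siCIP2A#1 library and 45.8 CPM in the siCIP2A#2 library, 1 library each. CIP2A was at 19.3 CPM in the siCIP2A#3 library. Its difference was -0.24 (SE 0.15) for siCIP2A#1 against siCIP2A#3 and 1.25 (SE 0.15) for siCIP2A#2 against siCIP2A#3, and edgeR called neither. For siCIP2A#2 against siCIP2A#3, DESeq2, edgeR with no filter and edgeR with the GC and length offsets did call it, at 1.24, 1.24 and 1.39. These comparisons also have 1 library on either side.

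POLR2H, a subunit shared by RNA polymerases I, II and III, was higher in the siCIP2A#1 library than in the siCIP2A#3 library. For siCIP2A#1 against siCIP2A#3 its log2 difference was 1.00 (SE 0.15, edgeR adjusted p = 0.0414), with 73.8 CPM with siCIP2A#1 and 37.0 CPM with siCIP2A#3, 1 library each.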

How the results depend on the processing

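The 52 genes had 416 log2 differences over 8 comparisons, and each was refitted under the alternatives of its comparison. Of 2652 refits, 210 had the other sign, spread over 112 differences, and 62 were called. Of the 179 differences larger than their standard error, 0 of 1008 refits had the other sign. Of the 68 differences named in the text, 31 of 612 refits had the other sign and 33 were called, all others keeping their sign and side of the threshold. In siCIP2A against controls, other signs under RLE factors and DESeq2 were those of NOP58 (0.0001 in both). The GC and length offsets turned NOP58 (0.043) and POLR1E (0.0153) there and RIOK2 (-0.0643) for non-targeting siRNAs against mock. With the mock as a separate level POLR1E (0.0361), FBL (0.0268) and NOP58 (0.0148) turned. Leaving out 1 library gave ranges across 0 for POLR1A (-0.0337 to 0.1387), POLR1B (-0.1996 to 0.0307), POLR1E (-0.0488 to 0.0361), FBL (-0.1353 to 0.0917), NOP58 (-0.1422 to 0.0655), DKC1 (-0.1079 to 0.092), NOP10 (-0.0435 to 0.0514), LTV1 (-0.104 to 0.1316), RIOK2 (-0.1473 to 0.0022), WDR12 (-0.1618 to 0.046) and SRM (-0.0352 to 0.2335). The same held for ODC1 with siCIP2A#1 (-0.0259 to 0.0619) and FBL with siCIP2A#2 (-0.0594 to 0.0123).

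Counts of called genes moved more than directions did. In siCIP2A against controls edgeR called 0 genes, DESeq2 3, edgeR without a filter 3, and leaving out 1 library 0 to 1, with 0 of the 52 each time. For siCIP2A#1, #2 and #3 against controls edgeR called 16, 10 and 1, DESeq2 76, 57 and 29, no filter 169, 109 and 44, and the offsets 466, 224 and 136. Members among these were 0 each with edgeR and DESeq2, 0, 0 and 1 with no filter, and 1, 1 and 1 with the offsets. Leaving out 1 control gave 83 to 1812 genes (0 to 7 members) for siCIP2A#1, 36 to 2991 (0 to 18) for siCIP2A#2 and 20 to 1211 (0 to 14) for siCIP2A#3, the highest each time without the mock. For siCIP2A#1 against siCIP2A#2, siCIP2A#1 against siCIP2A#3 and siCIP2A#2 against siCIP2A#3, DESeq2 called 91, 147 and 100 genes, no filter 156, 305 and 211 (0, 2 and 0 members), and the offsets 566, 983 and 686 (0, 8 and 7 members). For non-targeting siRNAs against mock, DESeq2 called 3 and no filter 5, with 1 member each. The causes were not tested.

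Same-numbered libraries did not deviate together (correlations -0.117, -0.128 and 0.00762), so the numbers were not taken to pair the samples. With a replicate block edgeR called 1 gene, CIP2A, and 0 of the 52, and LTV1 turned to -0.0058.

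Low counts widen the error: PPAN, at 0.994 to 1.79 CPM, had a standard error of 0.31, against a median of 0.11 over the 52. With 1 library per siRNA, tests of single siRNAs rest on the spread of the controls.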
